A study of Mus musculus with 8 samples.

Results

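Red blood cells carry hemoglobin, a tetramer of alpha and beta globin chains that each hold a heme group, and this account follows 9 genes of that cell type through mouse B cell libraries. The genes were Hba-a1 and Hba-a2 (adult alpha globin), Hbb-bs and Hbb-bt (adult beta globin), Hbb-bh1 (a beta-like globin of the embryo), Alas2, Slc4a1, Ahsp and Klf1. They were chosen by name, as genes whose RNA marks erythroid cells, and 8 of the 9 were matched by symbol among the 55401 genes listed, while Ahsp was not analysed here. All libraries came from the spleen of C57BL/6 mice. Germinal center B cells had been isolated by FACS, and the other libraries came from bead-enriched splenic B cells that were stimulated in vitro and are labelled activated B cells. For each cell type there were 2 libraries from wild-type (WT) mice and 2 from mice labelled Jmjd1c B KO (KO), which gives 4 groups and 8 libraries. Jmjd1c belongs to a family of Jumonji enzymes that remove methyl groups from histone H3. The sources used here do not give the Cre line, the exons removed, the stimulus, the age of the mice or any immunization, nor whether the 2 libraries of a group came from separate mice. The p-values below therefore measure the spread between libraries, which may be technical.

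Globin genes are switched on in erythroid precursors, where GATA1 and KLF1 bind their promoters and distant enhancers. In the mouse, embryonic beta-like chains are made by the primitive red cells of the yolk sac and the adult chains by the definitive red cells of the fetal liver, bone marrow and spleen. The spleen of the mouse makes red cells throughout life, and the macrophages of its red pulp break down old ones and recycle their iron. Circulating red cells of mammals have lost the nucleus, and reticulocytes, the youngest of them, still hold globin mRNA. B cells are not known for making hemoglobin.

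The libraries held 8777425 to 11414559 counts on genes. Levels are given as CPM, counts scaled to library size with the TMM method over all 8 libraries, as mean ± SD of n = 2 libraries, and a change as a log2 fold change with its SE. The threshold was an adjusted p of 0.05 in edgeR's quasi-likelihood test with Benjamini-Hochberg adjustment over all genes tested. Jmjd1c itself had 1341 and 1330 counts in KO against 1850 and 1950 in WT germinal center B cells, and 1329 and 1520 against 2656 and 2852 in activated B cells. It was lower in KO in both (-0.20, SE 0.04, edgeR adjusted p = 1.66e-05, and -0.94, SE 0.06, adjusted p = 1.81e-11), and since the deleted exons are not known, reads outside them may remain. Summed markers of B cells, among them Cd79a, stood at 7763 to 10240 CPM in all 8 libraries. Those of germinal center B cells, among them Bcl6, stood at 1635 to 3152 CPM in the germinal center libraries and at 148.9 to 162.6 CPM in the activated ones.

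The alpha genes lie on chromosome 11 (mm10, in GENCODE coordinates), Hba-a1 at 32283511 to 32284465 and Hba-a2 at 32296489 to 32297298, both on the plus strand. The beta genes lie on chromosome 7 on the minus strand, Hbb-bt at 103812524 to 103813996, Hbb-bs at 103826534 to 103828096 and Hbb-bh1 at 103841637 to 103843164. Each pair of adult genes is a recent duplicate, and this limits what the counts can tell apart. The coding sequences of Hba-a1 and Hba-a2 differ at 1 of 429 bases (C381T, counted from 1 at the A of the start codon, with the base of Hba-a1 first). Those of Hbb-bs and Hbb-bt differ at 1 of 444 bases (C417T, with the base of Hbb-bs first). Only reads that cover the differing base or unlike parts of the untranslated ends can be assigned to 1 copy. The 41 bases around each difference, from the GRCm38 reference, are therefore shown, and the capital marks the base that differs.
Hba-a1: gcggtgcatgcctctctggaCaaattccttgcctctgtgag
Hba-a2: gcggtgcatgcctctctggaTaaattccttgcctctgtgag
Hbb-bs: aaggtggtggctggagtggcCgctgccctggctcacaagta
Hbb-bt: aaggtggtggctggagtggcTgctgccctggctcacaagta
Of all 50-base windows of its transcripts, 72.3% for Hba-a1, 89.3% for Hba-a2, 53.2% for Hbb-bs and 58.3% for Hbb-bt also occur in another gene. The share was 0 for Hbb-bh1, Alas2, Slc4a1 and Klf1. Among windows of the main coding transcript that touch an untranslated end, it was 40% for Hba-a1 and 86.4% for Hba-a2. For Hbb-bs and Hbb-bt it was 7.61% and 5.41% there. Hbb-bs and Hbb-bh1 are 74.6% identical over their coding sequences and shared no such window. Levels of the adult copies are therefore uncertain singly, and sums over each pair are given where they change a value.

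The promoters are shown because these genes are held to be regulated together and, in the libraries, mostly moved together. Each is the 120 bases before the RefSeq transcription start (GRCm38.p6, 5′ to 3′ on the gene's strand). Capitals mark matches to CCNCNCCC (a CACCC box, the kind of site KLF1 binds), to a GATA site (AGATAA or else TGATAA, and the forms AGATAG or else TGATAG) and to CCAAT, each on either strand, and to TATAA on the gene's strand.
Hba-a1: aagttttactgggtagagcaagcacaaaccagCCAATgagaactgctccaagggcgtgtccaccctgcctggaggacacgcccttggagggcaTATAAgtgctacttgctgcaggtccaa
Hba-a2: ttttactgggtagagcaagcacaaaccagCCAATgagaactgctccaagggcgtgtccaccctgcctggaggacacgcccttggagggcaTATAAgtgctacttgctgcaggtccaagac
Hbb-bs: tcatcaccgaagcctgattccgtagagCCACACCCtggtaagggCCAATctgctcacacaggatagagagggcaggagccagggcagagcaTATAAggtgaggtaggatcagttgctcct
Hbb-bt: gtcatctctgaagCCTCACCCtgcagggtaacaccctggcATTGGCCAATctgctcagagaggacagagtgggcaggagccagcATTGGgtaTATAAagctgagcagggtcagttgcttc
Alas2: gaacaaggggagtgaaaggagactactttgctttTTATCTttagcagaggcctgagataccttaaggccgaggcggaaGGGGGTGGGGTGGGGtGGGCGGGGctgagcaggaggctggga
The 4 adult globin promoters each held TATAA and at least 1 CCAAT, which 8.53% and 21.3% of 32851 mouse promoters hold in a window of this length. The 2 beta promoters each held 1 match to CCNCNCCC, and Alas2 held 4, some of which overlap, against 34.6% of all promoters with at least 1. The bare letters CACCC, outside a full match, also stand unmarked in both alpha windows and in that of Hbb-bt. Of the Alas2 matches 1, GGGCGGGG, does not hold them on either strand. A GATA site was found in Alas2 and in no globin window of this length, against 12.8% of all promoters, while in 250 bases (26.5% of all promoters) Hba-a1, Hba-a2 and Hbb-bs each held 1. Aligned end to end, the alpha windows matched at 117 of 123 columns (95.1%). The other columns are at the ends, where the 2 windows are offset, and the stretch they share is identical. The adult beta windows matched at 91 of 122 columns (74.6%). A match is a string of letters and says nothing of binding in these cells. The promoters of Hbb-bh1, Slc4a1 and Klf1 are not shown. That of Klf1 was searched too, and its 120 bases held 1 GATA site, 1 CCAAT and neither CCNCNCCC nor TATAA.

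In germinal center B cells, 6 of the 7 genes that could be tested were higher in KO and 1, Hbb-bh1, was lower. Of all 13350 genes tested in this comparison 50.2% passed, 25.1% higher and 25.1% lower, so that passing alone sets no gene apart here. The sizes were large: the median log2 fold change of the 7 genes was 3.61, against -0.00443 over all genes tested. Hba-a1, Hba-a2, Alas2 and Slc4a1 passed the low-count filter (1.06 CPM in 2 libraries) through the KO libraries alone and Klf1 did not pass it, so the count and the median describe these genes and support nothing. In bulk RNA, fewer cells of a type and less RNA per cell cannot be told apart, and this holds for every level below.

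Hba-a1 had 137 and 172 counts in the KO libraries of germinal center B cells and 8 and 9 in the WT ones. Both KO libraries lay far above both WT libraries, and the level was 18.6 ± 2.62 against 0.837 ± 0.00392 CPM. The log2 fold change was 4.47 (SE 0.26, edgeR adjusted p = 4.21e-67), a 22.1-fold difference. Hba-a2, the second adult alpha gene, had 37 and 29 counts in KO and 2 and 1 in WT, again without overlap. Its change was 4.64 (SE 0.57, edgeR adjusted p = 1.01e-15). With 3 counts in WT, the ratio of the summed counts was 27.0 with an exact 95% counting interval of 8.83 to 134. Leaving out WT replicate 1 moved it to 5.26 (adjusted p = 1.01e-09, and 5.58e-81 to 5.73e-06 over all alternatives).

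The adult beta genes differed from each other in size. In germinal center libraries Hbb-bs had 183 and 233 counts for KO and 17 and 25 for WT, or 25.1 ± 3.78 against 2.05 ± 0.377 CPM. KO libraries were higher without overlap, by 3.61 (SE 0.20, edgeR adjusted p = 2.37e-74). Hbb-bt had 94 and 121 counts in KO and 37 and 55 in WT, or 12.9 ± 2.05 against 4.49 ± 0.858 CPM. It too was higher in KO without overlap, but by 1.53 (SE 0.19, edgeR adjusted p = 1.71e-14). With the counts of both beta copies summed the change was 2.54, and with both alpha copies summed it was 4.52 (edgeR adjusted p = 1.15e-77 and 5.58e-81).

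The make-up of the beta counts differed between the groups. In WT germinal center B cells Hbb-bt made up 68.5% and 68.8% of the counts of Hbb-bs and Hbb-bt together (exact 95% intervals 54.5% to 80.5% and 57.4% to 78.7%). In KO germinal center B cells it made up 33.9% and 34.2%, with intervals from 28.4% to 39.8%. Among activated libraries it made up 3.59% to 4.63% in the 4 libraries, of either genotype. The 3 ranges did not overlap, and the intervals cover counting error only. Since only reads in the differing ends or over C417T can be assigned, the share is one of assigned reads. The alpha copies differed likewise. Hba-a2 made up 21.3% and 14.4% of their counts in KO germinal center B cells (intervals from 9.88% to 28.1%). In activated libraries it made up 3.3% to 5.6%. In WT germinal center B cells it made up 20% and 10%, of 10 counts in each library, with intervals from 0.253% to 55.6%. The alpha share of all adult globin counts was 36.2% to 39.6% in 6 libraries, those of KO germinal center B cells and of activated B cells. In the 2 libraries of WT germinal center B cells it was 15.6% and 11.1%, from 10 alpha counts in each, with intervals from 5.46% to 26.9%. These shares were not tested between groups.

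**Figure D1:**
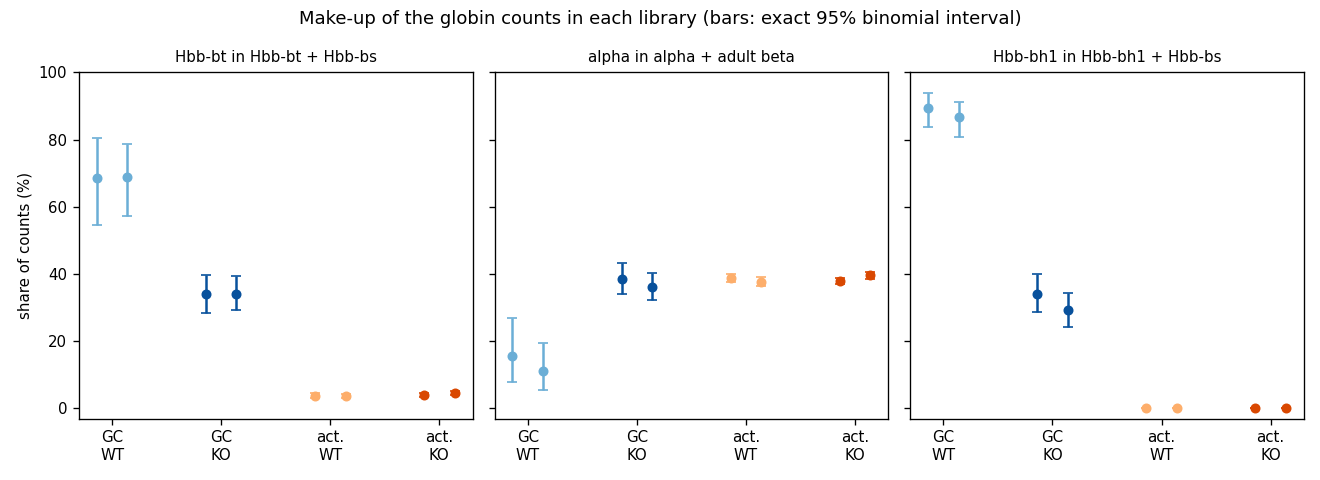
Share of counts in percent (y) in each of the 8 libraries, by group (x: GC, germinal center; act., activated), for 3 pairs of globin genes, with exact 95% binomial intervals as bars. Hbb-bt makes up 68.5% and 68.8% of the adult beta counts in WT germinal center libraries and 3.59% to 4.63% in the activated ones.

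Hbb-bh1, the embryonic beta-like globin, went the other way. It had 145 and 162 counts in WT and 95 and 96 in KO germinal center B cells, or 15.1 ± 0.145 against 11.5 ± 0.138 CPM. The libraries did not overlap, and the difference of -0.38 (SE 0.15) passed with an edgeR adjusted p of 0.0264. It did not pass in DESeq2 (adjusted p = 0.171) or without any 1 of the 4 libraries (0.0587 to 0.0975), and the range over all alternatives was 0.024 to 0.171. Per kilobase of exon, Hbb-bh1 was the highest of the 8 genes in WT germinal center B cells, at 24.7 ± 0.236 CPM per kb, above Hbb-bt (6.39 ± 1.22), Hbb-bs (2.67 ± 0.490) and Hba-a1 (1.03 ± 0.00483). Its neighbours in the cluster were near the floor: Hbb-bh2 had 2 and 3 counts in WT and 6 and 3 in KO, and Hbb-y, the other embryonic beta-like gene, had at most 1 count in any library. Hba-x, the embryonic alpha-like gene, had 0 counts in all 8 libraries.

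**Figure D2:**
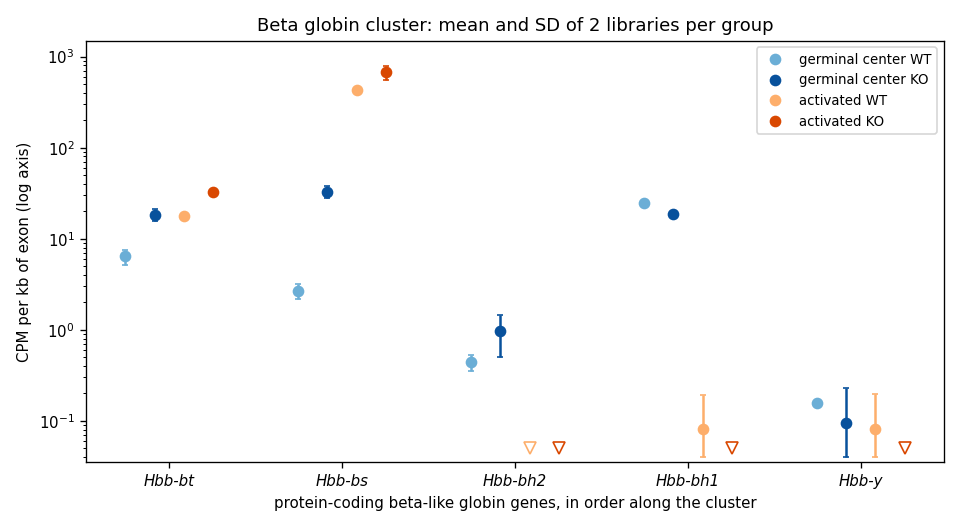
Level per kilobase of exon (y, log axis, mean of 2 libraries with SD) of the 5 protein-coding beta-like globin genes in their order along chromosome 7 (x), by group. Open triangles mark groups with 0 counts, and bars that would pass below the axis are cut there. Hbb-bh1 stands at 24.7 and 18.8 CPM per kb in WT and KO germinal center B cells and at or near 0 in activated B cells.

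The other erythroid genes were few in counts. Slc4a1 (chromosome 11, 102348824 to 102366203, minus strand) encodes band 3, the anion exchanger of the red cell membrane. Its counts in germinal center B cells were 31 and 42 for KO and 1 and 1 for WT. The KO libraries were higher without overlap, by 5.31 (SE 0.61, edgeR adjusted p = 1.64e-18), and the ratio of summed counts was 44.7 with a counting interval of 11.9 to 376. Alas2 (chromosome X, 150547375 to 150570638, plus strand) encodes the erythroid form of the first enzyme of heme synthesis. It had 24 and 37 counts in KO and 6 and 13 in WT, or 3.67 ± 1.04 against 0.917 ± 0.407 CPM, without overlap. Its difference was 1.98 (SE 0.39, edgeR adjusted p = 1.55e-06). Of its 2403 exon bases 311 overlap Apex2 on the opposite strand, and whether the counting used strand is not given. Apex2 did not pass in either KO comparison (edgeR adjusted p = 0.185 and 0.41). Klf1 (chromosome 8, 84901928 to 84905291, plus strand), the transcription factor that binds CACCC boxes of globin promoters, had 4 and 2 counts in KO and 1 and 3 in WT. These overlapped and were too few to test.

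In activated B cells, 5 of the 7 genes tested were higher in KO and 2, Hba-a2 and Klf1, did not pass. Only 6.27% of 14110 genes passed in this comparison, 4.85% higher and 1.42% lower. The median log2 fold change of the 7 was 0.71, against 0.000623 over all genes tested. The genes were chosen with earlier results of these data known. They mostly moved together in the libraries, so they are not separate cases. The count and the median therefore describe these genes and support nothing. Each of the 5 stood higher here than in germinal center B cells of the same genotype, and KO and WT differed by under 2-fold in all 5.

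The activated libraries held 3511 and 3005 counts of Hba-a1 for KO and 2026 and 1976 for WT, which is 327 ± 39.4 against 202 ± 9.56 CPM. KO was higher without overlap, by 0.71 (SE 0.07, edgeR adjusted p = 2.18e-08). Hba-a2 had 134 and 108 counts in KO and 70 and 118 in WT, and the 2 groups overlapped. Its difference of 0.38 (SE 0.18) did not pass (edgeR adjusted p = 0.279). It was 0.77 and passed without WT replicate 2 (adjusted p = 0.00962), and the alpha copies summed were higher by 0.70 (adjusted p = 2.52e-08). Over all alternatives its adjusted p ran from 2.52e-08 to 0.999.

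Hbb-bs was the most abundant of the 8 genes, with 5713 and 4533 counts in KO and 3184 and 3332 in WT. At 515 ± 89.2 against 328 ± 0.769 CPM it was higher in KO by 0.66 (SE 0.07, edgeR adjusted p = 5.79e-07), and the 2 KO libraries differed from each other more than the WT ones did. Hbb-bt had 238 and 220 counts in KO and 124 in each WT library. It was higher in KO by 0.89 (SE 0.12, edgeR adjusted p = 1.4e-05), without overlap. Hbb-bh1, the embryonic gene, had 0 and 0 counts in KO and 0 and 1 in WT, and was not tested.

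Slc4a1 gave 813 and 796 counts from KO cells and 402 and 446 from WT cells. The difference was 0.93 (SE 0.07, edgeR adjusted p = 1.38e-09), within the spread of that of Hbb-bt, and the libraries of a group lay close together. Alas2 had 469 and 465 counts in KO and 318 and 313 in WT, and was higher by 0.58 (SE 0.08, edgeR adjusted p = 2.84e-05), without overlap. Klf1 had 18 and 20 counts in KO and 15 and 8 in WT. The groups did not overlap, but the difference of 0.73 (SE 0.41) did not pass (edgeR adjusted p = 0.369).

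**Figure D3:**
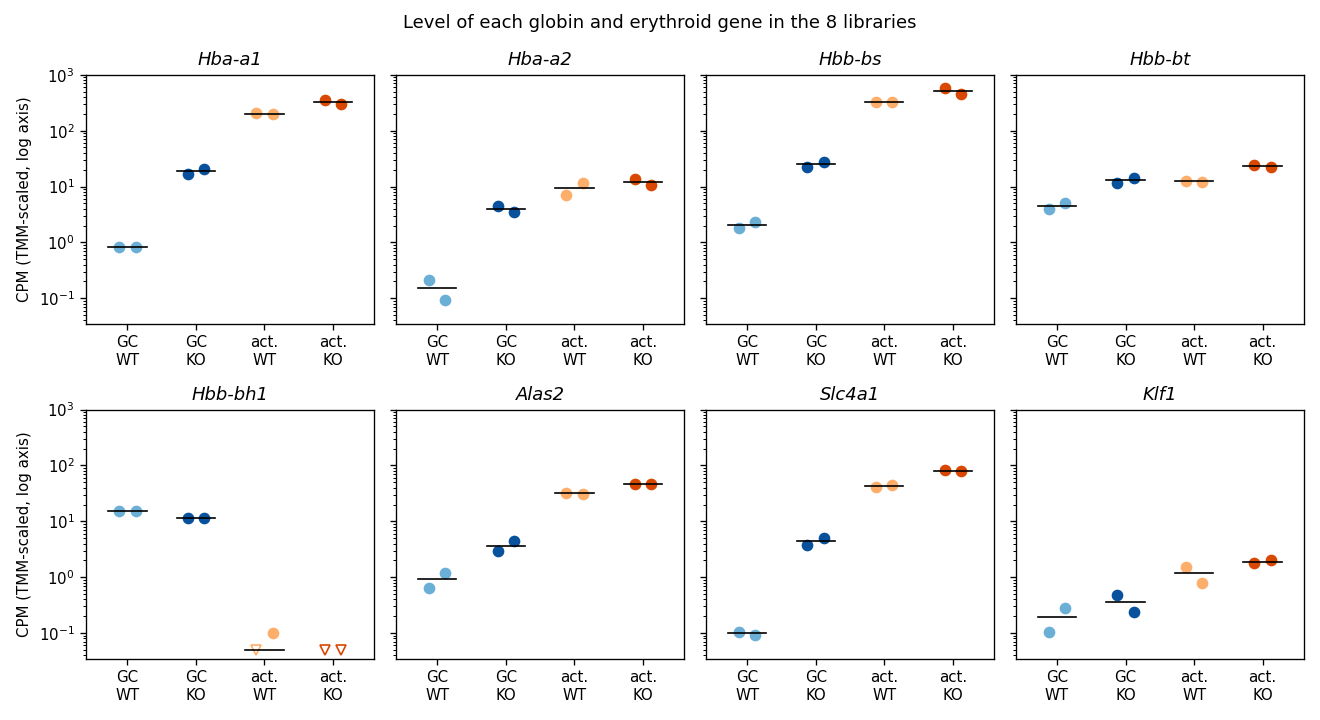
CPM (y, log axis) of each of the 8 genes in each library (points) by group (x: GC, germinal center; act., activated), with the mean of 2 libraries as a line and open triangles for libraries with 0 counts. The 4 adult globin genes, Alas2 and Slc4a1 are lowest in WT germinal center B cells and highest on average in KO activated B cells, and Hbb-bh1 has the opposite order.

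Together the 8 genes took 0.0969% and 0.117% of all gene counts in KO activated B cells and 0.0664% and 0.0666% in WT. In germinal center B cells they took 0.00689% and 0.00809% in KO and 0.0022% and 0.00236% in WT. Most of the WT germinal center value is Hbb-bh1, which gave 145 of 217 and 162 of 269 counts in those 2 libraries.

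**Figure D4:**
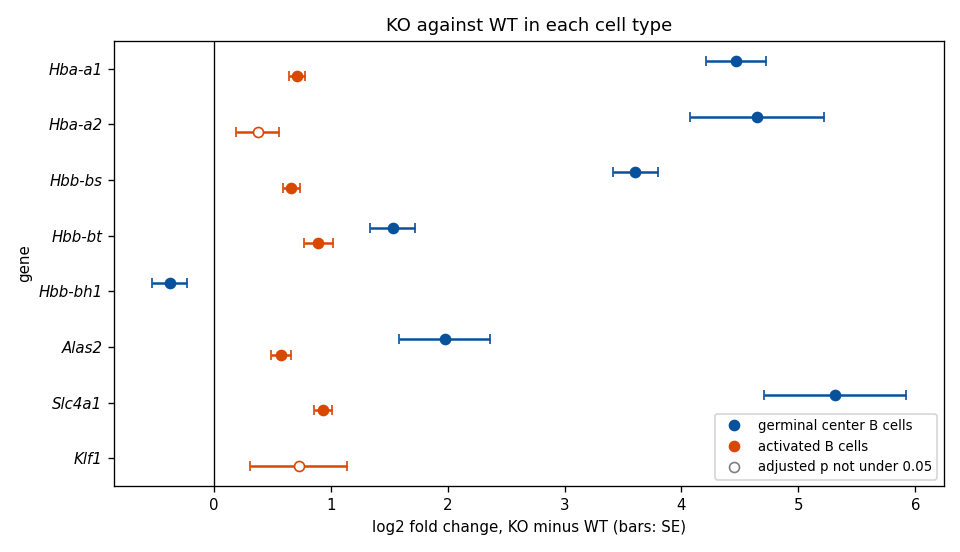
Log2 fold change of KO against WT (x, with SE as bars) of each gene (y) in germinal center B cells and in activated B cells, where open points did not pass and genes without a point were not tested. The changes in germinal center B cells run from -0.38 (Hbb-bh1) to 5.31 (Slc4a1), those in activated B cells from 0.38 (Hba-a2) to 0.93 (Slc4a1).

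The KO differences of the 2 cell types were compared in 1 fit over all 8 libraries. Of the 8 genes, 6 had a larger rise in germinal center B cells, and 31.2% of 14992 genes passed in this comparison, 17.5% in that direction and 13.8% in the other. The difference of the 2 log2 fold changes was 4.38 (SE 0.60) for Slc4a1, 4.27 (SE 0.63) for Hba-a2, 3.76 (SE 0.26) for Hba-a1 and 2.94 (SE 0.21) for Hbb-bs, with edgeR adjusted p-values of 5.51e-10, 7.22e-09, 2.74e-23 and 3.16e-22. Without WT germinal center replicate 1 that of Hba-a2 was 4.90 (adjusted p = 1.69e-06, and 3.1e-26 to 9.34e-05 over all alternatives). Alas2 differed by 1.40 (SE 0.37, edgeR adjusted p = 0.00146), and by 1.07 with an adjusted p of 0.0623 without KO germinal center replicate 2 (5.7e-04 to 0.0623 over all alternatives). Hbb-bt differed by 0.63 (SE 0.23, edgeR adjusted p = 0.0277), which did not pass in DESeq2, without the low-count filter, or without any 1 of 4 libraries. With the beta copies summed the difference was 1.87 (adjusted p = 5.45e-19). Klf1 and Hbb-bh1 did not pass (edgeR adjusted p = 0.945 and 0.474).

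The comparisons between the 2 cell types use the same libraries as those of the genotypes, so the values stand side by side and are no separate support. Of the 7 genes tested between WT germinal center and WT activated B cells, 6 were lower and 1 was higher in germinal center B cells, where 82.2% of 14426 genes passed. In KO cells 7 were lower and 1 higher of the 8 tested, where 78.7% of 14307 genes passed. The 6 were the adult globin genes, Alas2 and Slc4a1, and Klf1, which was not tested in WT cells, was the 7th in KO cells. The shares of all genes that passed were 40.3% higher and 41.8% lower in WT, and 39.2% higher and 39.5% lower in KO cells.

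Among the adult globin genes, Hba-a1 and Hbb-bs were lower in WT germinal center B cells than in WT activated B cells, with log2 fold changes of -7.92 (SE 0.13) and -7.33 (SE 0.10) and edgeR adjusted p-values of 1.26e-126 and 8.01e-139. In KO cells the same differences were -4.15 (SE 0.09) and -4.37 (SE 0.10). Hbb-bt differed least, by -1.49 (SE 0.19) in WT and -0.84 (SE 0.13) in KO cells, with edgeR adjusted p-values of 5.11e-13 and 2.3e-06. With the beta copies summed these became -5.72 in WT and -3.83 in KO cells. Hba-a2 differed by -5.91 (SE 0.44) in WT and -1.62 (SE 0.21) in KO cells (edgeR adjusted p = 1.66e-29 and 6.78e-08), and with the alpha copies summed the values were -7.76 and -3.92. Without WT germinal center replicate 1 the first of these was -6.51 for Hba-a2.

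Slc4a1 differed by -8.62 (SE 0.28) in WT and -4.21 (SE 0.12) in KO cells, and Alas2 by -5.10 (SE 0.21) and -3.68 (SE 0.15). All 4 passed, with edgeR adjusted p-values from 1.39e-22 to 5.59e-75 for Slc4a1 and from 4.19e-19 to 3.56e-59 for Alas2. The ratio of summed Slc4a1 counts between WT activated and WT germinal center B cells was 434, with a counting interval of 120 to 3587. Klf1 was lower in KO germinal center than in KO activated B cells by 2.37 on the log2 scale (-2.37, SE 0.55, edgeR adjusted p = 2.35e-04). In WT cells it had 1 and 3 counts against 15 and 8 and did not pass the low-count filter. Its WT difference was -2.50 in a fit of all 8 libraries (edgeR adjusted p = 0.00116) and -2.61 in DESeq2 (adjusted p = 0.0744).

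Hbb-bh1 was the only 1 of the 8 with more counts in germinal center libraries than in activated ones. In WT cells it had 307 against 1 count, a ratio of 300.2 with a counting interval of 53.5 to 11890, and the fitted change was 7.89 (SE 0.46, edgeR adjusted p = 3.63e-42). That fitted value moved to 7.05 without WT activated replicate 1 and to 10.2 without replicate 2 (adjusted p = 5.15e-44 and 4.64e-45, and 4.87e-67 to 1e-07 over all alternatives). In KO cells it had 191 against 0 counts, at least 76.5-fold higher against a floor of 3 counts over the group (edgeR adjusted p = 3.02e-14).

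Per kilobase of exon, the order of the genes differed between cell types. In WT activated B cells Hbb-bs (427 CPM per kb) and Hba-a1 (248 ± 11.8) stood far above Hbb-bt (17.8 ± 0.529), Hba-a2 (14.1 ± 4.70), Alas2 (13.2 ± 0.542), Slc4a1 (8.72 ± 0.381), Klf1 (0.762 ± 0.348) and Hbb-bh1 (0.0804 ± 0.114). Hbb-bt, Hba-a2 and Alas2 lay within the SD of Hba-a2 of each other. In KO activated B cells the first 3 in this order were Hbb-bs (670 ± 116), Hba-a1 (403 ± 48.5) and Hbb-bt (32.7 ± 2.16). In KO germinal center B cells Hbb-bs (32.6 ± 4.92) and Hba-a1 (22.9 ± 3.23) led, followed by Hbb-bh1 (18.8 ± 0.225) and Hbb-bt (18.4 ± 2.92), which did not differ beyond their spread. Assigned reads set these levels, so those of the adult copies may be too low.

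The rest of the erythroid program was examined by lists of genes that are known for it but are not among the 9. In germinal center B cells, 4 of 13 tested genes of heme synthesis and mitochondrial import were higher in KO, 2 were lower and 7 did not pass, with a median of -0.07, where 50.2% of all genes passed. Ppox, an enzyme late in the pathway, was higher by 0.54 (SE 0.06, edgeR adjusted p = 7.68e-17), and Slc25a37, the mitochondrial iron importer mitoferrin-1, by 0.34 (SE 0.05, adjusted p = 4.28e-11). Uros and Slc25a38 were higher by 0.26 and 0.23. Alad, the second enzyme of the pathway, was lower by 0.45 on the log2 scale (-0.45, SE 0.09, edgeR adjusted p = 2.38e-06), as was Tmem14c (-0.37, SE 0.07, adjusted p = 5.46e-07). Unlike Alas2, these 6 genes had over 100 counts in every library.

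Of the red cell membrane and cytoskeleton list, 7 of 12 tested genes were higher and 3 lower in germinal center B cells of KO mice, and 2 did not pass, with a median of 0.35 (over all genes tested, 25.1% passed as higher and 25.1% as lower). DESeq2 called 7 of 14, where it called 4695 of 14995 genes. Rhd, 1 of the 12, passed the low-count filter through the KO libraries alone. Gypc, glycophorin C, was higher by 1.58 (SE 0.17, edgeR adjusted p = 3.11e-20), and Cd47, a surface protein that restrains phagocytes, by 0.46 (SE 0.05, adjusted p = 8.8e-17). Add1 (adducin) and the glucose transporter gene Slc2a1 were higher by 0.33 and 0.57. Epb41, which encodes protein 4.1, and Xk were lower (-0.53, SE 0.04, and -1.05, SE 0.11, edgeR adjusted p = 1.09e-33 and 3.08e-22). Many of these serve other cells too. Epb42, which encodes a protein of the red cell membrane skeleton and is largely restricted to red cells, had 7 and 7 counts in KO and 1 and 1 in WT and did not pass the low-count filter. The ratio of its summed counts was 8.58 with a counting interval of 1.97 to 77.8.

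In activated B cells 7 of 22 membrane and cytoskeleton genes were higher in KO and 15 did not pass, while in DESeq2 0 of 21 passed (9 at an unadjusted p under 0.05 in edgeR). Over all genes in this comparison, edgeR called 6.27% and DESeq2 311 of 13879. Of the 22 genes 3, Dmtn, Add2 and Rhag, passed the low-count filter through the KO libraries alone, so the count describes the list and supports nothing. Epb42 had 37 and 50 counts from KO cells and 14 and 27 from WT cells, without overlap, and was higher by 1.09 (SE 0.31, edgeR adjusted p = 0.0301).

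Of the erythroid transcription factors and the erythropoietin receptor, 7 of 13 tested passed as higher in KO cells of the germinal center, 2 as lower, and 4 did not pass, with a median of 0.19. Of all genes 50.2% passed in this comparison, 25.1% in each direction. DESeq2 called 8 of the 13, and 4695 of 14995 over all genes. Klf3, a repressor that binds the same CACCC boxes as KLF1, was higher by 2.18 (SE 0.11, edgeR adjusted p = 1.31e-90), from 11.9 ± 2.02 to 53.9 ± 2.79 CPM. Lmo2, a bridging factor of the GATA1 complex, was higher by 0.79 (SE 0.05, edgeR adjusted p = 2.16e-55). Cbfa2t3, Klf13 and Bcl11a, a repressor of embryonic globins, were higher by 0.47, 0.32 and 0.19. Myb was lower (-0.65, SE 0.10, edgeR adjusted p = 1.74e-09). All 6 had at least 100 counts in every library, in WT as in KO. The factors that define the red lineage were near 0: Gata1 had 0 and 1 counts in the KO libraries of this cell type and 0 and 0 in the WT ones, and Epor had 0 and 2 in KO and 2 and 0 in WT. Of 16 tested in activated B cells 4 were higher in KO and 12 did not pass, where edgeR called 6.27% of all genes. DESeq2 called 2 of 15 there, and 311 of 13879 over all genes. Gata1 had 20 and 24 counts in KO against 6 and 9 in WT and was higher by 1.55 (SE 0.43, edgeR adjusted p = 0.026). Of the 16 genes tested 3, Gata1, Tal1 and Sox6, passed the low-count filter through the KO libraries alone. The count and the test of Gata1 therefore describe these genes and support nothing.

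Red cell enzymes and late erythroid genes showed no common direction in germinal center B cells, where 5 of 16 tested were higher in KO, 7 lower and 4 did not pass, with a median of -0.10, against 25.1% of all genes in each direction. Car2, carbonic anhydrase 2, was higher by 1.60 (SE 0.28, edgeR adjusted p = 3.31e-08), and Ube2o, an E2 ubiquitin enzyme of reticulocytes, by 0.53. Cat (catalase), Bpgm (whose product lowers the oxygen affinity of hemoglobin), Tfrc (the transferrin receptor) and Prdx2 (peroxiredoxin 2) were lower, by -0.43, -0.86, -0.38 and -0.41. Of 21 tested in activated B cells 4 were higher and 17 did not pass, where edgeR called 6.27% of all genes. DESeq2 called 1 of 21, and 311 of 13879 over all genes. Of the 21 genes 3, Car1, Trim58 and Tfr2, passed the low-count filter of this comparison through the KO libraries alone, so the count supports nothing. Bpgm was higher there by 0.38 (SE 0.11, edgeR adjusted p = 0.0371), and Car2 by 0.29 (SE 0.09, adjusted p = 0.0385).

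Markers of other blood and spleen cells were set beside the globin genes. Of the list for red pulp macrophages and iron recycling, 13 of 14 tested passed as higher in KO cells of the germinal center and 1 did not pass, with a median of 3.47. Over all genes tested, 25.1% passed as higher and 25.1% as lower. Its sum stood at 81.9 and 79.4 CPM in KO and at 27.4 and 26.4 CPM in WT, and at most 2 of 17 genes had no count in a library. Slc40a1, the iron exporter ferroportin, had 54 and 47 counts in KO and 7 and 3 in WT, a difference of 3.61 (SE 0.40, edgeR adjusted p = 1.08e-18). Spic, the transcription factor of these macrophages, had 12 and 17 counts against 2 and 1, and Hmox1, which breaks down heme, 69 and 60 against 35 and 32. Vcam1, Axl and Mrc1 were higher by 3.77, 3.75 and 3.40. Of the 14 genes tested 9, Slc40a1, Spic, Vcam1, Axl and Mrc1 among them, passed the low-count filter through the KO libraries alone, so the count and the median describe the list and support nothing. The part of these cells in the globin result was not tested.

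Of the monocyte and phagocyte list, 6 of 9 tested passed as higher in KO cells of the germinal center and 3 did not pass, and 5 of the 9 met the low-count filter through the KO libraries alone. For this and the following lists, 25.1% of all genes tested passed as higher and 25.1% as lower. Its sum was 162 and 171 CPM in KO against 90.1 and 89.0 CPM in WT. Most of that difference was 1 gene, Mpeg1, at 72.8 and 81.7 CPM in KO against 16.2 and 17.0 CPM in WT. Ly6c2 had 78 and 57 counts in KO and 0 and 1 in WT, and Lyz2 17 and 42 against 4 and 2. Of the T cell list 3 of 4 tested were higher, of which Cd4 and Cd5 met that filter in KO libraries alone, and Cd3e had 9 and 11 counts in KO and 0 and 0 in WT. Neutrophil markers were near 0 in these cells: S100a8 and S100a9 had 2 and 1, and 5 and 3, counts in KO and 0 in both WT libraries, and the list summed to at most 1.96 CPM. Of 15 platelet and megakaryocyte genes 3 could be tested, and 1, Itgb3, was lower in KO (-0.35, SE 0.06, edgeR adjusted p = 1.41e-08). Their sum was 90.5 and 88.5 CPM in KO against 110 and 113 CPM in WT. Itga2b, a defining marker of the list, had 14 and 10 counts in KO and 10 and 15 in WT and did not pass (edgeR adjusted p = 0.685), while Pf4 and Ppbp, the other two, had 0 counts in all 4 libraries. Of 8 B cell markers 7 were higher in KO and 1 did not pass, with a median of 0.30, and all 8 germinal center markers were lower, with a median of -0.80. The part of these cells in the globin result was not tested.

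In activated B cells all 10 neutrophil markers were higher in KO, with a median of 1.94, and their sum was 2463 and 2029 CPM in KO against 635 and 560 CPM in WT. Monocyte markers were higher in 9 of 13 tested and summed to 1658 and 1505 against 957 and 916 CPM. Fcgr1, 1 of these 13, passed the low-count filter through the KO libraries alone. Red pulp macrophage markers were higher in 5 of 12 and summed to 475 and 432 against 333 and 330 CPM. The 8 globin and erythroid genes summed to 1102 and 912 against 631 and 623 CPM. KO libraries were higher in all 4 sums, and replicate 1 of KO was the higher of its pair in each. The same held for the T cell sum (204 and 200 against 181 and 177 CPM). The platelet sum was higher in KO too (115 and 117 against 104 and 107 CPM), with replicate 2 the higher. The B cell sum was lower in KO (7859 and 7763 against 8019 and 7961 CPM), with replicate 1 the higher. The germinal center B cell sum was also lower (149 and 157 against 161 and 163 CPM). DESeq2 called 9 of 10 neutrophil, 8 of 12 monocyte and 3 of 12 red pulp macrophage markers. Over all genes, DESeq2 called 311 of 13879 and edgeR 6.27%. In edgeR 0 of 8 tested T cell, 0 of 8 B cell and 0 of 5 platelet markers passed (3, 4 and 1 at an unadjusted p under 0.05, and 0, 1 and 0 in DESeq2). Pf4 had 7 and 11 counts in KO and 8 and 2 in WT. The part of these cells in the globin result was not tested.

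**Figure D5:**
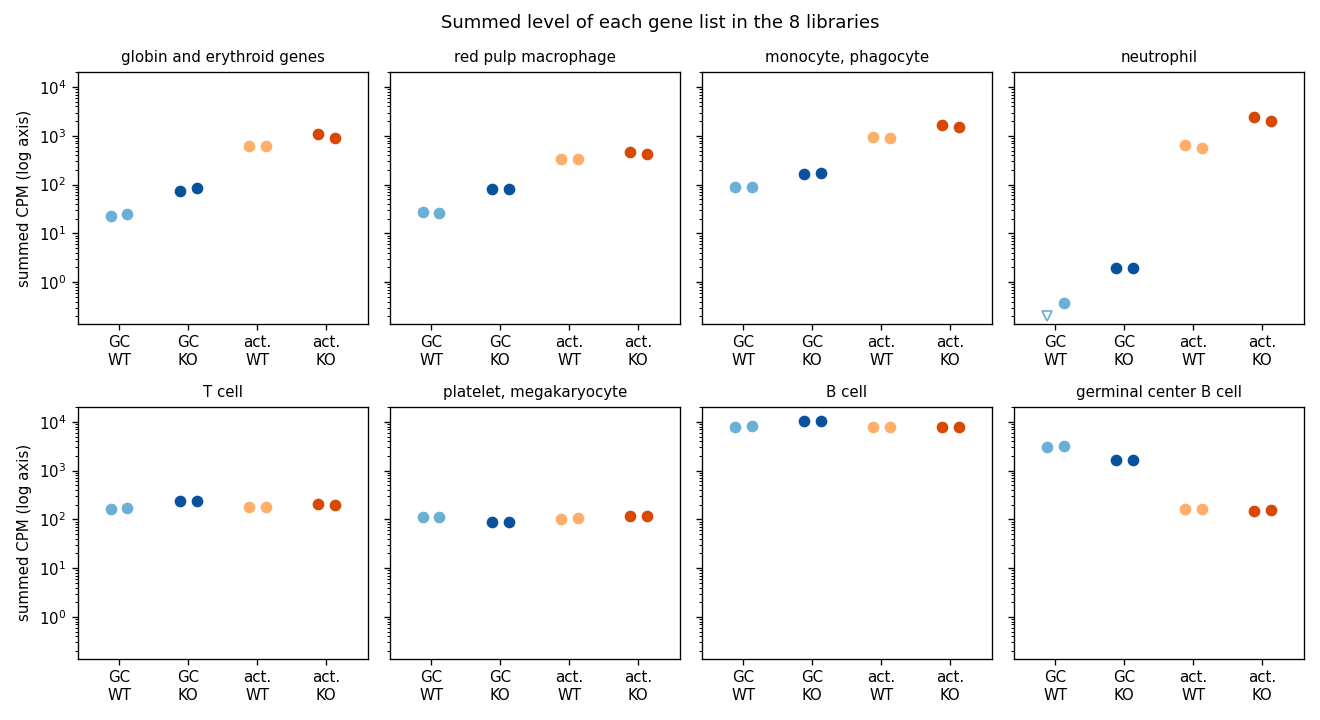
Summed CPM (y, log axis) of the 8 globin and erythroid genes and of 7 marker lists in each library (points) by group (x: GC, germinal center; act., activated), with an open triangle for a sum of 0. The sums for red pulp macrophages, monocytes and neutrophils are lowest in WT germinal center B cells and highest in KO activated B cells, as is the sum of the globin and erythroid genes. Single genes of the red pulp list do not all follow its sum. Of 16 tested between KO germinal center and KO activated B cells, 5 were higher, 7 lower and 4 did not pass (all genes: 39.2% higher, 39.5% lower).

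The genes whose pattern over the 8 libraries was most like that of the 4 adult globin genes were found among 10528 genes by Pearson's r of log2(CPM + 1) with the mean of the 4. The libraries fall into separate cell types and share their scaling, so r serves only to rank genes. The 10 highest were Npc2, Vsir, Mcoln2, Mpeg1, Gtf2ird2, Slc29a3, Trim34a, Hdgfl3, Cracr2a and Tns3, with r from 0.997 to 0.999. Npc2, a cholesterol carrier of the lysosome, stood at 25.3 and 28.2 CPM (WT) and 54.4 and 56.5 CPM (KO) among germinal center libraries. Among activated ones it stood at 102 and 103 CPM in WT and 127 and 113 CPM in KO. Mpeg1, a pore-forming protein of macrophages and other phagocytes, rose in the same order, from 16.2 and 17.0 CPM to 300.3 and 300.6 CPM.

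For Hbb-bh1 the same ranking, chosen after its values were seen, gave Mcm5, Mtmr14, Aspm, Emg1, Cdc45, Helq, Rcc1, Dnmt1, Sgo1 and Nup85, with r of 0.999 or more. Mcm5 and Cdc45, which act in DNA replication, stood at 603 and 621 CPM and at 107 and 102 CPM in WT germinal center B cells. In activated B cells Mcm5 stood at 26.5 to 32.8 CPM and Cdc45 at 5.38 to 5.97 CPM. The order of the 4 groups was that of Hbb-bh1 for the germinal center libraries, where each of Mcm5, Aspm and Cdc45 was higher in both WT than in both KO libraries.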

How the data were processed

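The authors deposited whole-number read counts per gene for each of the 8 RNA-seq libraries. Trimmomatic, DESeq2 and mm10 are named per the submitters' processing notes, while the aligner, the counter and whether it used strand were not given in the sources used here. Reads assigned to no feature made up 47.2% to 53.9% of all entries, and reads with more than 1 alignment, kept in a summary entry outside the genes, 4.37% to 9.23%. Groups came from the titles. Tests used edgeR 4.0.16 in R 4.3.3 (TMM, filterByExpr with a minimum count of 10, quasi-likelihood F test, Benjamini-Hochberg over all genes tested), within the groups compared or, for the difference of KO effects, over all 8 libraries, and were tested on simulated data. DESeq2 1.42.0, other filters and scalings, summed copies, a replicate block and leaving out each library were alternatives. Counting intervals are exact 95% and cover counting error only. Replicates differed by more than sampling noise (chi-square per degree of freedom 1.39 to 2.4).

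The 9 genes and the lists were chosen with earlier results of these data known. Named genes are the 9, Jmjd1c, up to 6 per list with the lowest p in germinal center B cells, list-defining markers, and the 10 genes most like the adult globins. Further genes named for activated B cells and the TATAA motif were chosen after the data and the sequences were seen. The 41-base stretches and windows come from GENCODE transcripts of GRCm38, the promoters from RefSeq (GRCm38.p6), where 6 of 8 genes matched. Results of some listed genes are not reported here.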

Additional observations from a re-analysis of the deposited data

Results flagged for a closer look

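For 6 genes the KO difference was larger in germinal center B cells than in activated B cells by a test of that difference over all 8 libraries (edgeR quasi-likelihood, Benjamini-Hochberg). The difference of the log2 fold changes was 4.38 for Slc4a1, 4.27 for Hba-a2, 3.76 for Hba-a1, 2.94 for Hbb-bs, 1.40 for Alas2 and 0.63 for Hbb-bt. Over all 14992 genes, 31.2% passed this test, 17.5% in this direction. For each of these 6 genes both KO libraries of germinal center B cells lay above both WT libraries. The share of all genes that do so was not counted, and 25.1% of 13350 passed as higher in KO there. For Slc4a1 and Hba-a2 the WT germinal center value rests on 2 and 3 counts. Groups of 2 libraries are too small for a check of single outlying libraries.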

How the results depend on the processing

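Of 429 values of the 8 genes under the alternatives, 411 kept direction and side of the threshold, 12 lost the call, 2 gained it and 4 changed sign. The sign changes were in differences of KO effects that did not pass: Klf1 (0.12) became -0.45, -0.32 and -0.42 without KO or WT germinal center replicate 1 or WT activated replicate 1 (up to 0.96 without WT germinal center replicate 2), and Hbb-bh1 (1.90) became -0.36 without WT activated replicate 2 (up to 2.72 without replicate 1). For Hbb-bt that difference lost its call in DESeq2 (adjusted p = 0.246), without the low-count filter (0.0549) and without KO germinal center replicate 2 (0.206), WT germinal center replicate 1 (0.171), KO activated replicate 2 (0.0715) or WT activated replicate 1 (0.0612), in a range over all alternatives of 5.45e-19 to 0.246. Genes called in activated B cells were 311 with DESeq2 (255 higher, 56 lower) and 465 without the low-count filter (397 and 68), against 885 (684 and 201), and for the difference of KO effects 2645 with DESeq2 against 4685. The cause was not tested. With a replicate block 1388 genes were called in activated B cells (953 and 435), and the block changed no other call by over 1.5 times. Same-numbered libraries did not deviate together (correlations of -0.0386 to 0.0358 over 10835 genes), so they share only a number. Counts of the 8 genes called stayed within 1.5 times in every alternative run. DESeq2 counts for the lists were added after seeing the data.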
